A study of Mus musculus with 6 samples.

Results

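The amino acid response and tRNA synthetase genes are a set of 40 genes chosen by name: 24 transcription factors, enzymes, transporters and other targets of the ATF4 pathway, and 16 cytosolic aminoacyl-tRNA synthetases. They were measured in 3T3-CrT cells, a line made from mouse 3T3 Tet-Off fibroblasts that stably expresses a rabbit creatine transporter (CrT) cDNA, so both groups carry this transgene. The Cr cells had received 5 mM creatine monohydrate (Cr) in their growth medium for 3 h (n = 3 wells), and the controls were left untreated (n = 3 wells). RNA from each well was hybridized to an Illumina mouse expression array (6 arrays in all). All wells came from a single engineered line, so p-values measure only the spread between wells, and no source used here says whether the wells came from separate experiments.

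A gene counted as measured when any of its probes reached a detection p-value no higher than 0.05 on 1 or more of the arrays. By this rule 35 of the 40 genes were measured by 63 probes, out of 10585 named genes in the whole series. The measured genes were 19 of the 24 non-synthetases and all 16 synthetases. Psph, Pycr1, Slc7a5, Slc7a1 and Vldlr had no probe under their symbol among those tested and were not analysed here. Each gene is described by its brightest tested probe, called its main probe, and all 35 main probes were detected on all 6 arrays.

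Median signal lay between 152 and 161 on the Cr arrays and between 157 and 167 on the untreated arrays. The Cr arrays detected 17289 to 17700 probes, against 16396 to 17249 on the untreated arrays. Untreated replicate 1 stood apart from the other arrays: its score on the leading principal component was -18.9, against -2.64 to 10.9 for the rest, and its estimated array weight was 0.498, against 0.885 to 1.45. Without it, 3 of the 35 genes described below turned in sign (Eif4ebp1, Eprs and Vars) and 18 moved by over 1.5 times on their main probe. For the main-probe differences and the medians named below that turned or moved so, the value without this array is given beside the value from all 6. Further probes of a gene are given from all 6 arrays only, and some of them also turned or moved so. Of 12 fibroblast marker genes 10 were measured and 9 were detected on all 6 arrays, whereas of 30 markers of adipocytes, macrophages, endothelium, epithelium and skeletal muscle 10 were measured and 2 (Cd14 and Krt8) were detected on all 6.

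The amino acid response senses a shortage of charged tRNA. Uncharged tRNA activates the kinase GCN2, which phosphorylates the initiation factor eIF2; general translation then slows while translation of the transcription factor ATF4 increases. ATF4, paired with C/EBP family partners, binds C/EBP-ATF response elements and drives genes for amino acid synthesis, amino acid uptake and tRNA charging, together with the feedback regulators CHOP (Ddit3) and TRB3 (Trib3). Other stresses reach the same factor through other eIF2 kinases, so these transcripts are widely used as a readout of the integrated stress response.

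The promoters of these genes show where this factor could bind. The 8-base core TGATGNAA, or TTNCATCA on the other strand, was searched in RefSeq windows of 300 bases, 250 before and 50 after each start (GRCm38.p6). Windows were matched for 27 of the 35 measured genes, and 10 of these 27 (37%) held the core, as did 1219 of all 27025 genes (4.51%). By role, the core was in 5 of 9 synthetases (55.6%) and in 5 of 18 other members (27.8%). A match is a run of letters and not a shown binding site. The stretches below belong to the 7 genes with the core whose values are given in full, with 1 of the 2 matches in Aars, and the capitals mark the core, read 5′ to 3′ on the strand of the gene.
Asns (chr6:7693209-7693248, minus strand): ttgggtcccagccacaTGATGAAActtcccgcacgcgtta
Atf3 (chr1:191183420-191183459, minus strand): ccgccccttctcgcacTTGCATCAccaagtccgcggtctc
Chac1 (chr2:119351033-119351072, plus strand): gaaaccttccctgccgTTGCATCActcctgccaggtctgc
Nupr1 (chr7:126625557-126625596, minus strand): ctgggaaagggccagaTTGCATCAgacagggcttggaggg
Trib3 (chr2:152344023-152344062, minus strand): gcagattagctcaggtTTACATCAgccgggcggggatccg
Tars (chr15:11399650-11399689, minus strand): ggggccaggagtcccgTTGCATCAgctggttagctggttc
Aars (chr8:111033714-111033753, plus strand): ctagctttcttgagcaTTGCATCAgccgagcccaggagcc
The core in Atf3 and that in Nupr1 both began 110 bases before the start, and that in Trib3 lay after it.

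After 3 h of 5 mM Cr, none of the 35 measured genes differed from untreated controls at an adjusted p of 0.05 or less (limma, Benjamini-Hochberg over 20308 probes); over all probes, 6 passed (0.0295%). On the main probes the lowest adjusted p was 0.94, for Atf3. The largest differences were small: Gpt2 was at 84.9% of its untreated level and Nupr1 at 112%, and 27 of the 35 genes lay within 10% of the untreated level. In this fit, which subtracted no separate background, the 95% confidence intervals bounded every gene between 74.0% and 127% of its untreated level. A doubling of any main probe lay outside them. The extreme log2 differences in this fit were -0.236 (Gpt2) and 0.163 (Nupr1). On the authors' deposited values, background-corrected with negative controls, they were -0.227 (Cebpb) and 0.157 (Nupr1). With normexp background correction the extreme differences were wider. They were -0.343 (Atf3) and 0.247 (Cars) with normexp background and quantile normalization (neqc). With normexp and median scaling they were -0.287 (Atf3) and 0.301 (Cars). Total RNA was measured from whole wells, where a change in the number of responding cells and a change in RNA per cell cannot be told apart.

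Without adjustment, 3 members passed a p of 0.05 in limma and all 3 were lower with Cr (Atf3, Cebpb and Gpt2), against 2.60% of all probes in that direction. No member passed in the higher direction, where 2.45% of all probes did. Non-overlap of the 3 Cr and the 3 untreated values gave a similar picture: Nupr1 was the only member with all Cr values above the untreated ones, against 5.59% of all probes. Atf4, Atf3, Cebpb, Gpt2 and Hars were the 5 with all Cr values below, against 5.15%. The other 29 overlapped. The median log2 difference (Cr minus untreated) was -0.06 over the members (-0.0379 without untreated replicate 1). Over all named genes it was 0.00297 (0.007 without that array), with an interquartile range of -0.061 to 0.0648. Levels and differences here are on the variance-stabilized log2 scale unless another fit is named. Of the 35 members 24 lay below 0 and 11 above it, whereas 5156 of the 10585 named genes lay below 0.

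**Figure D1:**
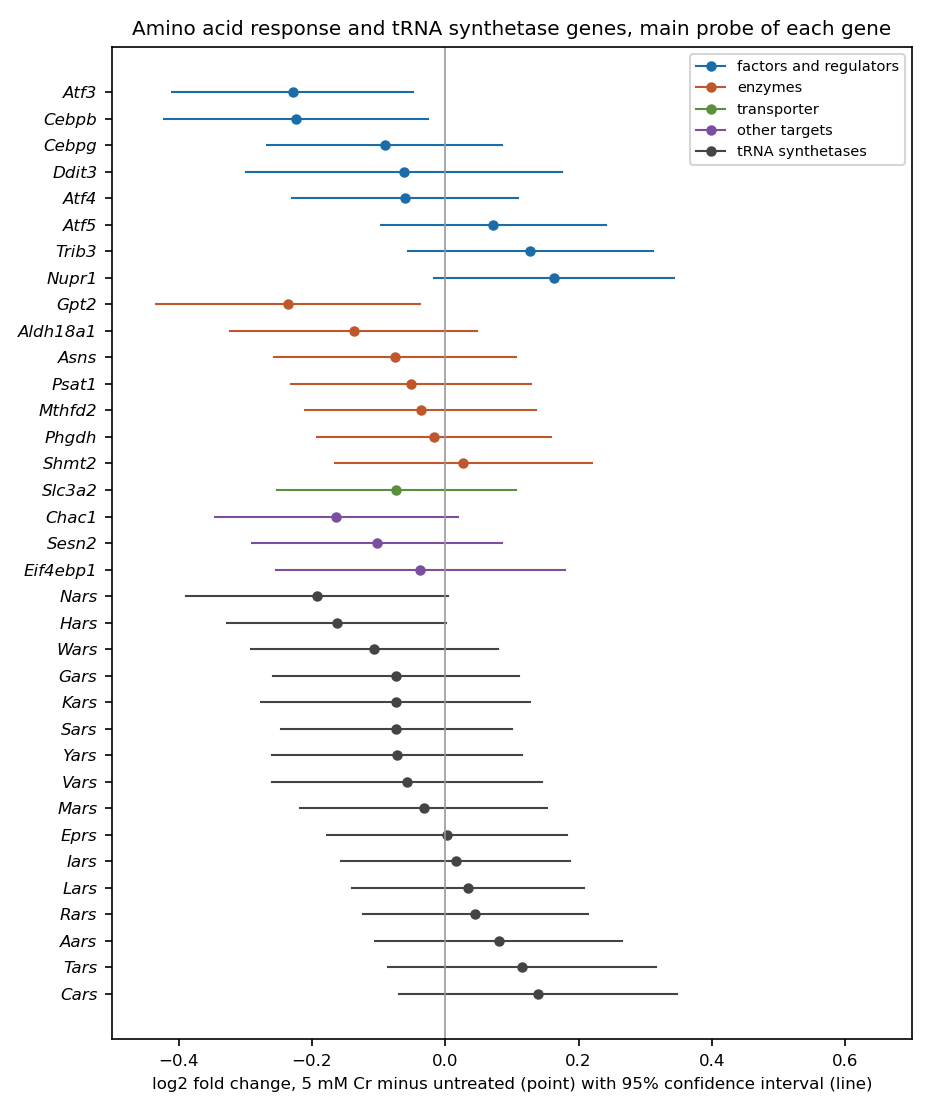
Log2 difference (Cr minus untreated, x axis) of the 35 measured members on their main probes, grouped by role, with 95% confidence intervals from limma (n = 3 wells per group). The differences lie between -0.24 and 0.16, and 32 of the 35 intervals include 0.

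Atf4 (probe ILMN_2642681), the factor at the centre of the pathway, was strongly expressed and near its untreated level. Its normalized log2 level was 13.07, 12.95 and 13.07 in the Cr wells, against 13.09, 13.08 and 13.10 in untreated wells. All Cr values were below the untreated ones, with a narrow gap between the nearest wells. The difference was -0.06 (SE 0.08; limma adjusted p = 0.994), or 95.9% of untreated (95% confidence interval 85.3% to 108%), and the other Atf4 probe gave -0.07. ATF4 protein is controlled largely at the level of translation, which arrays do not measure.

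Atf3 (ILMN_2619408), a stress-inducible bZIP factor that ATF4 helps to induce, had the lowest p-value among the members. It was at 7.96, 7.91 and 7.94 in the Cr wells, and at 8.16, 8.05 and 8.29 in untreated wells. Every Cr value was below every untreated value. The difference was -0.23 (SE 0.08; limma adjusted p = 0.94), or 85.3% of untreated (75.3% to 96.7%), and it stayed between -0.29 and -0.17 when any array was left out. Atf3 is also known as an early response gene to growth factors.

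Ddit3 (ILMN_2652909) encodes CHOP, a C/EBP-related factor induced by ATF4. It was at 9.50, 9.60 and 9.50 with Cr, against 9.29, 9.72 and 9.77 without. The untreated wells spanned more than the Cr wells and enclosed all of them. The difference of -0.06 (SE 0.11; limma adjusted p = 0.995) became -0.21 without untreated replicate 1 and 0.03 without untreated replicate 3. The other Ddit3 probe gave -0.12.

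Trib3 (ILMN_1225528) encodes a pseudokinase that restrains ATF4 activity. It was at 9.44, 9.54 and 9.32 in Cr wells and at 9.31, 9.38 and 9.24 in untreated wells, with overlapping groups. The difference was 0.13 (SE 0.09; limma adjusted p = 0.986), or 109% of untreated (96.2% to 124%). Its other probes did not share a direction: one detected on all arrays gave -0.07, and a dim one, detected on 1 Cr array and on 0 untreated arrays, gave 0.06.

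Nupr1 (ILMN_2742042), a small nuclear stress protein and ATF4 target, was the highest-ranked member in the upward direction. Its level was 11.71, 11.69 and 11.85 with Cr, against 11.57, 11.51 and 11.67 without, so that the groups were separated by a narrow gap. The difference was 0.16 (SE 0.08; limma adjusted p = 0.986), or 112% of untreated (98.8% to 127%).

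Cebpb (ILMN_2756435) encodes C/EBPβ, a bZIP protein that can pair with ATF4. It was at 12.27, 12.14 and 12.13 in Cr wells, against 12.57, 12.36 and 12.27 in untreated wells, and the highest Cr value was just under the lowest untreated value. The difference was -0.22 (SE 0.09; limma adjusted p = 0.948), or 85.6% of untreated (74.6% to 98.2%). Without untreated replicate 1, which had the highest value, it was -0.14. The remaining factors, Atf5 at 0.07 (0.05 without that array) and Cebpg (a partner of ATF4) at -0.09, had overlapping groups, and the median over all 8 factors and regulators was -0.06.

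**Figure D2:**
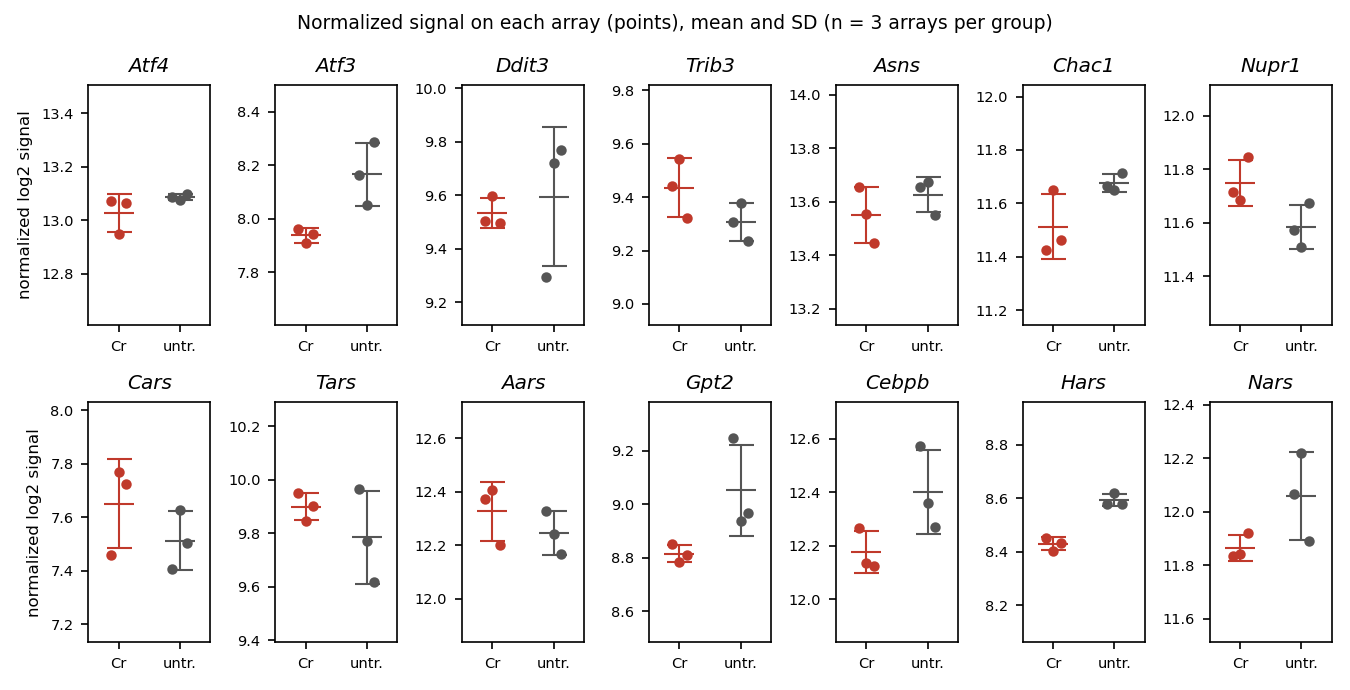
Normalized log2 level (y axis) of the members described in full, one point per array, with Cr wells left of untreated wells. Bars show the group mean and whiskers the SD (n = 3 each). Groups separate for Atf4, Atf3, Cebpb, Gpt2, Nupr1 and Hars, and overlap for the others.

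The enzymes of amino acid and folate metabolism showed the same narrow range. Asns (ILMN_2643513) makes asparagine and is the classic target of the amino acid response. It was at 13.65, 13.55 and 13.44 in Cr wells, against 13.65, 13.67 and 13.55 in untreated wells, which overlapped. The difference was -0.08 (SE 0.08; limma adjusted p = 0.988), or 94.9% of untreated (83.7% to 108%). Of its other probes 1 gave 0.10 and the other -0.07.

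Gpt2 (ILMN_1234702), the mitochondrial alanine aminotransferase, had the lowest ratio of all members. Its level was 8.85, 8.78 and 8.81 with Cr, against 9.25, 8.94 and 8.97 without, and the groups did not overlap. The difference was -0.24 (SE 0.09; limma adjusted p = 0.948), or 84.9% of untreated (74.0% to 97.4%), and -0.14 without untreated replicate 1, the highest of the 3 untreated wells. The other measured enzymes lay between -0.14 for Aldh18a1, which starts proline synthesis, and 0.03 for Shmt2, the mitochondrial serine hydroxymethyltransferase. Without that array these were -0.07 and 0.02. Phgdh and Psat1, both in serine synthesis, were at -0.02 and -0.05 (Psat1 at -0.00473 without that array), and Mthfd2, a mitochondrial folate enzyme, at -0.04. The median over the 7 measured enzymes was -0.05, and -0.029 without that array.

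Of the transporters, only Slc3a2 was measured, the heavy chain that partners several amino acid exchangers. It differed by -0.07 (SE 0.08; limma adjusted p = 0.989), and by -0.04 without untreated replicate 1. Among the other targets, Chac1 (ILMN_2617468), a glutathione-degrading enzyme strongly induced by ATF4, was at 11.43, 11.65 and 11.46 in Cr wells and at 11.67, 11.65 and 11.71 in untreated wells. Only Cr replicate 2 reached the untreated range. The difference was -0.16 (SE 0.09; limma adjusted p = 0.986), or 89.3% of untreated (78.7% to 101%). Sesn2, a leucine sensor upstream of mTORC1, was at -0.10, and Eif4ebp1, a repressor of cap-dependent translation, at -0.04; Eif4ebp1 turned to 0.06 without untreated replicate 1.

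The aminoacyl-tRNA synthetases join each amino acid to its tRNA, and many cytosolic ones are ATF4 targets. All 16 were measured by 35 probes. On the main probes 9 lay below 0 and 7 above, with a median of -0.04 and a range of -0.19 (Nars) to 0.14 (Cars). None passed an unadjusted p of 0.05 in limma, where 2.60% of all probes passed lower and 2.45% higher. Only Hars had groups that did not overlap, with lower Cr values, against 5.15% of all probes in that direction. Their intervals together ran from 76.4% to 127% of untreated.

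Hars (ILMN_1251489), for histidine, was at 8.45, 8.40 and 8.43 in Cr wells, against 8.58, 8.62 and 8.58 in untreated wells. Both groups were tight, and all Cr values were lower than all untreated values. The difference was -0.16 (SE 0.08; limma adjusted p = 0.985), or 89.3% of untreated, and the other Hars probe gave -0.05 with overlapping groups. Nars (ILMN_1227163), for asparagine, was at 11.83, 11.84 and 11.92 with Cr, against 12.06, 12.22 and 11.89 without. Untreated replicate 3 fell inside the Cr range. The difference was -0.19 (SE 0.09; limma adjusted p = 0.985), or 87.5% of untreated (76.4% to 100.3%).

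On the upper side, Cars (ILMN_1219935), for cysteine, was at 7.46, 7.77 and 7.72 in Cr wells and at 7.41, 7.63 and 7.51 in untreated wells. The groups overlapped, and the difference was 0.14 (SE 0.10; limma adjusted p = 0.986), or 0.09 without untreated replicate 1. Its probes disagreed more than those of any other member: a dim probe, detected on 1 Cr array and on all 3 untreated arrays, gave -0.26 with the lowest adjusted p of any member probe (0.891 in limma), and another gave 0.02. Tars (ILMN_1257552), for threonine, was at 9.95, 9.85 and 9.90 with Cr, against 9.97, 9.77 and 9.62 without. Untreated replicate 1 was the highest of all 6 values. The difference of 0.11 (SE 0.09; limma adjusted p = 0.986) became 0.21 without that array, and the other Tars probe gave -0.00235. Aars (ILMN_1258394), for alanine, was at 12.37, 12.41 and 12.20 with Cr and at 12.33, 12.24 and 12.17 without, a difference of 0.08 (SE 0.09; limma adjusted p = 0.987) with overlapping groups, and of 0.12 without untreated replicate 1.

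The other synthetases lay between -0.11 (Wars, for tryptophan) and 0.05 (Rars, for arginine), which were -0.05 and 0.02 without untreated replicate 1. Eprs, the enzyme for both glutamate and proline, was at 0.00 on its main probe (-0.04 without that array), while its other probes gave -0.17 and 0.11. Across all members, 19 genes had more than 1 tested probe and 9 of these had probes on both sides of 0. The median distance between the highest and the lowest probe of a gene was 0.113, and the largest, for Cars, was 0.394. Of the 35 members, 24 differed between groups by less than that median distance on their main probe.

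Genes whose promoter window held the core TGATGNAA did not lie to one side of 0. Of these 10 members 5 were above 0 and 5 below, with a median of -0.0284 and a range of -0.229 (Atf3) to 0.163 (Nupr1). Of the 17 matched members without it 3 were above 0 and 14 below, with a median of -0.0617. Within the sequences printed above, the same letters TTGCATCA stand before Atf3, Chac1, Nupr1, Tars and Aars, whose differences were -0.23, -0.16, 0.16, 0.11 and 0.08. No test was made of this comparison.

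Array by array, the members did not move as a block. Their median deviation from each gene's own mean over the arrays was -0.0414, 0.00192 and -0.0584 in the Cr wells, against 0.0348, 0.0275 and -0.0176 in untreated wells. Cr replicate 2 lay between the untreated wells, so the groups overlapped. Over all tested probes these medians lay between -0.00791 and 0.00345. For the synthetases alone they were -0.0341, 0.00209 and -0.0539 with Cr, against -0.00925, 0.0228 and -0.0319 without. Leaving out each array in turn changed the sign of the difference for 9 members and kept it for 26.

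**Figure D3:**
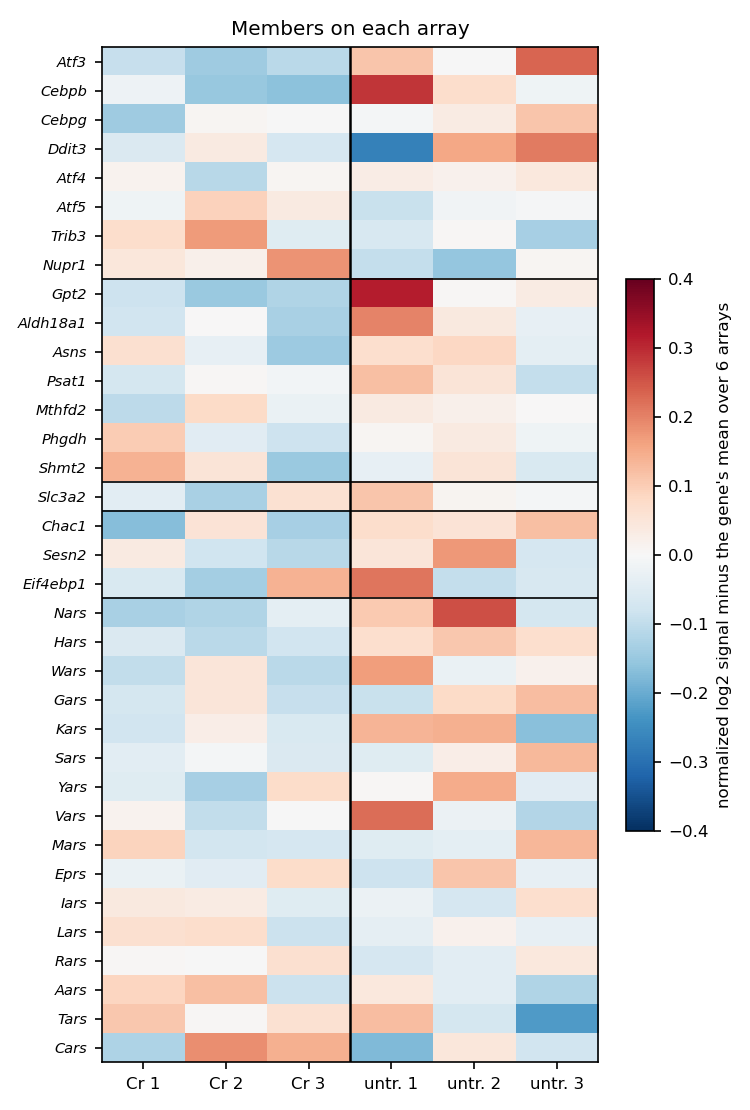
Deviation of each member's normalized log2 level from its mean over the 6 arrays (colour scale), with members in rows by role and arrays in columns, Cr left of untreated. Cr and untreated columns are mixed in colour for most genes. Atf4 and Cebpb (each by a narrow gap), Atf3, Gpt2 and Hars are lower in all 3 Cr columns than in any untreated column. Nupr1 is higher in all 3, also by a narrow gap.

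Other genes of the pathway are given by list, and none passed the adjusted threshold. Of 15 measured further ATF4 targets (20 listed), 1 was lower and 0 higher at an unadjusted p of 0.05 (limma). Over all probes 2.60% were lower and 2.45% higher at that level. The median of these targets was 0.0124 (0.00141 without untreated replicate 1). The 2 with the lowest p-values were Herpud1, which takes part in endoplasmic reticulum protein degradation, at -0.23 (limma adjusted p = 0.891), and Ppp1r15a, the stress-inducible subunit that directs eIF2 dephosphorylation, at -0.18 (limma adjusted p = 0.985). Of 13 measured eIF2 kinases, eIF2 and eIF2B subunits and their regulators (16 listed), 2 were higher and 1 lower at that level. The shares of all probes are those given for the further targets. Eif2ak2, the kinase activated by double-stranded RNA, was at 0.22 and the adaptor Nck1 at -0.23 (limma adjusted p = 0.962 for both), and in both genes the groups overlapped.

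The 6 measured remaining cytosolic synthetases and complex proteins (7 listed) had none past an unadjusted p of 0.05 (limma). Over all probes 2.60% were lower and 2.45% higher at that level. The median of these 6 was -0.052. Eef1e1, a scaffold protein of the synthetase complex, was at -0.15 and Farsb, a subunit of the phenylalanine enzyme, at -0.09 (-0.16 without untreated replicate 1). The mitochondrial synthetases (13 measured of 17) had a median of 0.0314, with 1 higher and 0 lower at an unadjusted p of 0.05 (limma). All Cr values lay above the untreated ones for 1 and below them for 2, against 5.59% and 5.15% of all probes. Among these synthetases, Wars2, for tryptophan, was at 0.26 (limma adjusted p = 0.903) and was the 1 with all Cr values above. Aars2, for alanine, was at -0.15 (-0.28 without untreated replicate 1) and was detected on 1 Cr array and 2 untreated arrays. The endoplasmic reticulum chaperones (11 measured of 12) are targets of the related unfolded protein response. Their median was -0.0462, which turned to 0.00886 without untreated replicate 1. Of the 11, 1 was lower and 0 higher at an unadjusted p of 0.05 (limma). Dnajb9 was at -0.20 (limma adjusted p = 0.948) and Edem1 at 0.16 (limma adjusted p = 0.985).

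Immediate early genes, which growth factors and stresses induce within minutes, showed larger differences on the same arrays. Of 10 measured (12 listed), 5 were lower and 0 higher at an unadjusted p of 0.05 (limma), against 2.60% and 2.45% of all probes. All Cr values lay below the untreated ones for 5, against 5.15% of all probes, and the median was -0.22. Egr3 and Ier3 of this list are among the genes the study itself reported as changed on these arrays. The list was chosen with earlier results of these data known, so its larger differences are not an independent finding. Egr3 was at -0.56 (limma adjusted p = 0.0516) and Ier3 at -0.50 (limma adjusted p = 0.0565), both just short of the threshold. Whether they passed depended on the fit. On the authors' deposited values both passed, at -0.55 and -0.51 (limma adjusted p = 0.0234 for each). Both also passed with quantile normalization, no filter, array weights, the robust prior or the replicate block. Neither passed with neqc (limma adjusted p = 0.59 and 0.614) or with normexp and median scaling (0.875 for each). Nor did either among probes detected on all 6 arrays (0.0554 for each). With 1 array left out, only Ier3 passed, and only without untreated replicate 1 (0.038). The median deviation of the listed early genes was -0.132, -0.153 and -0.139 in the Cr wells, against 0.188, 0.0982 and 0.173 in untreated wells. These medians did not overlap between the groups. Whether the values of Atf3 and Cebpb, known also as early response genes, belong with this list was not tested.

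**Figure D4:**
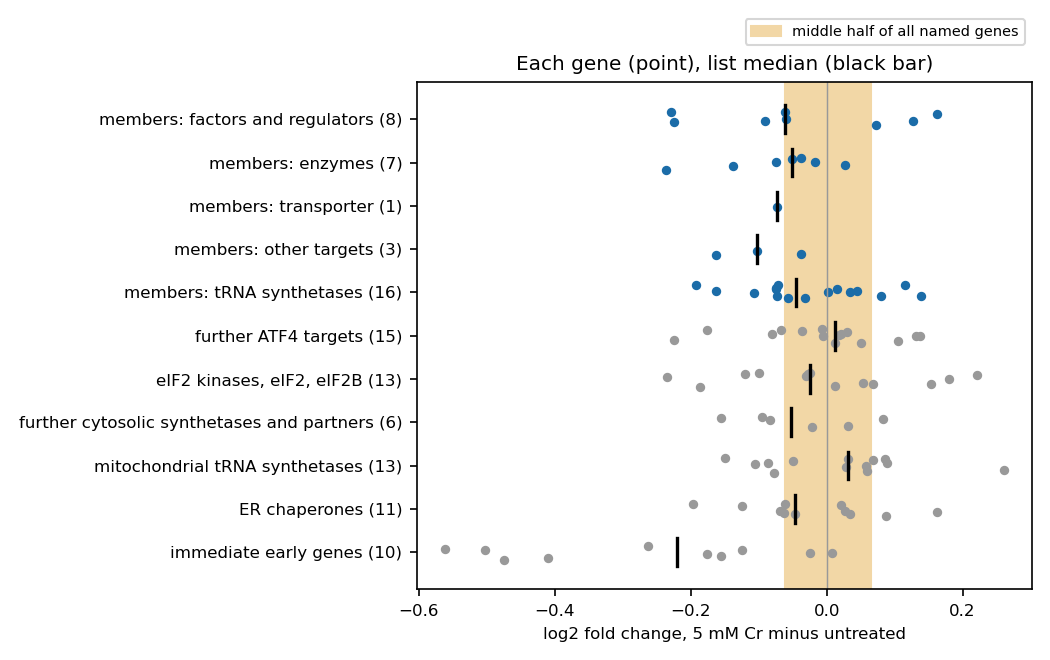
Log2 difference (Cr minus untreated) of each measured gene on its main probe, with genes as points and list medians as black bars, for the member roles and the other lists; the shaded band is the interquartile range of all named genes. Member roles have medians between -0.10 and -0.04, and the immediate early genes have a median of -0.22.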

How the data were processed

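Signal intensities and detection p-values were taken as the authors deposited them, exported from GenomeStudio 1.0.6 without background subtraction or normalization, for 45281 probes on 6 Illumina Mouse WG-6 v2 arrays. The authors' deposited log2 values (background from negative controls, vsn) served as an alternative. Probes were kept where any array gave a detection p-value no higher than 0.05 (20308; 14997 were detected on all 6). Symbols came from the platform annotation: 16925 probes had 1 symbol, 7 several and 3376 none. Mars was matched through its Entrez identifier.

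As in the study's methods, intensities were variance-stabilized with the vsn model, but with no separate negative-control background subtracted first; the model fits an offset for each array (asinh transform, trimmed likelihood at quantile 0.9, 7 rounds, 5 slices), written out in R 4.3.3 because the package was not at hand. The resulting differences had r = 0.9978 across probes with those from the authors' deposited values (largest gap between them 0.0604 on the log2 scale); probes are not independent replicates. limma 3.58.1 (lmFit, eBayes) compared 3 Cr with 3 untreated arrays, two-sided, with Benjamini-Hochberg adjustment over all 20308 probes. Intervals are 95% limits from the same model. Fits were tested on simulated data, with log2 changes added to 50 probes for each size of change. Of these 50, 2 were called at a change of 0.25, 26 at 0.5, 40 at 0.75 and 47 at 1. In addition, 4 unchanged probes were called. The number of arrays limits the precision. No slide or scan batch was given in the labels or methods.

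Members and lists were chosen with earlier results of these data known. The main probe is the tested probe with the highest mean normalized value. Values on every array are given for Atf4, Atf3, Ddit3, Trib3, Asns and Chac1 and for the 5 members of lowest unadjusted p in each direction; of each other list the 2 of lowest p are named. Promoter windows are from RefSeq (GRCm38.p6). Figures were drawn with matplotlib 3.10.9. Alternatives covered the normalization, background, filter, array weights, prior, replicate block and each array left out.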

Additional observations from a re-analysis of the deposited data

How the results depend on the processing

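Over 15 alternative fits, 0 of the 35 members passed the adjusted threshold, with a lowest adjusted p of 0.553 (limma, Atf3 without untreated replicate 2), while the count of all probes past it ranged from 0 to 15 (6 in the fit reported). The number of members lower at an unadjusted p of 0.05 (limma) was 3 in the fit reported and 3 with neqc. It was 5 with the deposited processed values and 5 with quantile normalization of log2 signals. It was 4 with no filter, among probes detected on all 6 arrays, and with array weights, the robust prior or the replicate block. With normexp background and median scaling it was 1. When arrays were left out it ranged from 1 (without Cr replicate 3) to 3. The number higher (0) ranged from 0 to 1. With normexp and median scaling the median of all probes was 0.0493, that of the members -0.0101, of the synthetases 0.0044 and of the other members -0.0164. The synthetase median was -0.0164 with array weights and -0.00697 over all their probes. When arrays were left out, the median ranged from -0.0592 to -0.0269 (without Cr replicate 2) for the members, from -0.056 to -0.0134 for the synthetases and from -0.0784 to -0.0518 for the other members. Ddit3 ranged from -0.212 to 0.0261. Of 210 values for the 14 members given in full (15 alternatives each), 208 kept their direction and side of the threshold. Most of these 14 were chosen by their p-values in the same data, which favours a kept direction. Their adjusted p-values in the fit reported were 0.94 or higher (limma), far from the threshold, so this count says little about stability. Over all 35 members, 9 changed sign when some array was left out, and 15 lay above 0 with normexp and median scaling, against 11 in the fit reported. The cause of these shifts was not tested. No label says whether same-numbered Cr and untreated wells belong together. Correlations of their deviations were 0.24, 0.312 and -0.0306, against -0.355 to 0.147 for wells of unlike number. With the replicate block 0 members and 14 of all probes passed. With 3 arrays per group and standard errors of 0.0769 to 0.111, log2 differences of the size seen here were not told apart from 0 after adjustment.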
